A study of Mus musculus with 24 samples.

Results

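The nuclear factor I (NFI) family of transcription factors comprises Nfia, Nfib, Nfic and Nfix. Its transcripts were followed in differentiating mouse brite adipocytes after knockdown of the long noncoding RNA Ctcflos. Members were taken by symbol, with earlier results of these data known, and all 4 were found among the 52089 symbols of the deposited table. They carried 66 of its 168326 transcript entries. The study itself had reported Nfia as reduced 24 h after the knockdown. For each symbol a single main entry was read, the RefSeq mRNA with the highest mean abundance over the 24 libraries, and the remaining entries were used as support.

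NFI proteins bind DNA as dimers at a palindrome with the arms TTGGC and GCCAA, and a single arm can also be bound, with lower affinity. In fat cells NFIA is known to occupy enhancers of brown fat genes together with PPARγ, and to restrain muscle genes in the brown fat lineage. NFIB shares much of its binding with NFIA, whereas NFIC and NFIX are known best from tooth and bone formation and from the maturation of muscle and brain. The members differ most outside the DNA-binding domain.

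Libraries came from primary cells of the stromal vascular fraction of inguinal white fat of 129SvEv mice, males a few weeks old per the study's methods. All cultures were induced for 2 days and then differentiated for 1 day with rosiglitazone, a PPARγ agonist that drives white adipocytes into the heat-producing brite state. They were then reverse transfected with an LNA gapmer at 50 nM, a chemically modified antisense oligonucleotide by which RNase H cuts the matching RNA, directed at Ctcflos (groups KD 24 h and KD 72 h), or with a control gapmer without a target (groups NC 24 h and NC 72 h). RNA was taken 24 h or 72 h later, with 6 libraries in each of the 4 groups. The study calls its transcriptome replicates biological, without saying whether they were separate animals or cultures, and the labels say neither this nor which Ctcflos gapmer was used. The p-values measure the spread between these samples.

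The libraries held between 1391828 and 5423837 mapped reads each (median 3945862), as recovered from the steps of the deposited values. NC 72 h replicates 2 and 3 differed by less than sampling noise and entered as a single sample, which left n = 5 in NC 72 h. The libraries also fell into a larger set of 16 and a smaller set of 8, with 2 libraries of each group in the smaller set. These sets were defined from the data and not by the labels, so values are given within each set below. The study aimed different gapmers at different isoforms of Ctcflos, so both kinds of isoform were read. The entry AK079954, at a mean of 4.0 reads, measured 0 to 0.831 RPKM in KD 24 h against 0.674 to 2.87 RPKM in NC 24 h, and 0 to 0.979 RPKM in KD 72 h against 1.48 to 3.86 RPKM in NC 72 h. The entry AK041254, the isoform at which the study's main gapmer was directed, measured 0 to 1.03 RPKM in KD 24 h against 0.171 to 0.848 RPKM in NC 24 h, and 0 to 0.529 RPKM in KD 72 h against 0.119 to 2.48 RPKM in NC 72 h. The ranges of AK041254 overlapped at both times and those of AK079954 at 24 h, and reads were too few for a test. By quantitative PCR the study itself reported an efficient reduction of Ctcflos transcripts 72 h after its early knockdown. RPKM is the read number scaled by transcript length and by the mapped reads of the library. The fat cell genes Fabp4, Adipoq, Lpl and Cd36 were abundant in every library, whereas summed endothelial and epithelial markers reached at most 1.46 and 1.66 RPKM.

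Stretches of the 300 bases around annotated gene starts, from 250 bases before to 50 after, show what the promoters of these genes look like (RefSeq, GRCm38.p6). Windows were found for 3 of the 4 members, 6 windows in all: 1 for Nfia, 1 for Nfic and 4 for Nfix. Nfib had no window. The Nfia window, chr4:97581693-97581992, lies upstream of the gene as annotated by GENCODE and holds 2 CpG dinucleotides, so it is not printed. The Nfic window is printed as the promoter of the member that was not lowered, and the Nfix window as the one that starts the best covered Nfix transcript. GC boxes (GGGCGG, the core bound by SP1-like factors, written CCGCCC when on the opposite strand) are in capitals. For comparison the window of Ucp1, the uncoupling protein that makes brown fat cells release heat, is shown with NFI arms in capitals (TTGGCA, read here on the opposite strand as TGCCAA).
Nfic, chr10:81427124-81427423, minus strand: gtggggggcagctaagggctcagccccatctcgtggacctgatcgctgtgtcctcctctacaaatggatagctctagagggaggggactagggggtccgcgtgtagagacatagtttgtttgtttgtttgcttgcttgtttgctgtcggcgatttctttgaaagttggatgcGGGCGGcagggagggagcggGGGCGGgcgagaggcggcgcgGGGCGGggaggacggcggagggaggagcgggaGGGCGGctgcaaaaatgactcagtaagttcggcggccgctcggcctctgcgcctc
Nfix, chr8:84773361-84773660, minus strand: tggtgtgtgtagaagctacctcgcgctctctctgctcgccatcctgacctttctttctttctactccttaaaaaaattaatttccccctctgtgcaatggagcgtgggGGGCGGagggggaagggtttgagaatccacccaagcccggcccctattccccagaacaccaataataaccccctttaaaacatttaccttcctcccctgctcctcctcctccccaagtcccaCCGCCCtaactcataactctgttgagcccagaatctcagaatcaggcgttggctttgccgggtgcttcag
Ucp1, chr8:83290098-83290397, plus strand: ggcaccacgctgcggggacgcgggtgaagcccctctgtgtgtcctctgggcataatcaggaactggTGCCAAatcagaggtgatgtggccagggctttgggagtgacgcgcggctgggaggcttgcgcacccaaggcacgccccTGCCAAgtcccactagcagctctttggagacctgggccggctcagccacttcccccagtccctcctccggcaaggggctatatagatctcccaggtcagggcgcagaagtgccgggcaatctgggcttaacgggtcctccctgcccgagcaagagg
The Nfic window holds 4 GC boxes and 24 CpG dinucleotides at 63.0% G and C, and the Nfix window holds 2 GC boxes and 9 CpG dinucleotides at 53.0%. A GC box was present in 35.7% of all 32851 windows, whose median was 7 CpG dinucleotides. The full NFI palindrome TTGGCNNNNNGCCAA occurred in 12 windows of all genes (0.0365%) and in 0 of the 6 windows of the members. The extended arm TTGGCA, on either strand, occurred in 14.1% of all windows, in 0 of the 6 members' windows and in 2 places in the window of Ucp1. These matches describe letters in short windows, and NFI factors are known to act largely at distant enhancers, which the windows do not cover.

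At 24 h Nfia fell to 27.0% of the control, Nfib to 37.3% and Nfix to 67.0%, in RPKM, while Nfic measured 133.9% and did not pass the test. At 72 h Nfia was lower at 38.1% and Nfib at 51.9% of the control. Nfix measured 101.5% by its main entry and Nfic 153.0%, and neither passed on the scaled values. The percentages are of RPKM as deposited, on which Nfic was called higher at 72 h (log2 fold change 0.59, adjusted p = 0.0289, limma). The scaled log2 fold change of Nfix at 72 h was -0.25. Of all 11111 genes tested at 24 h, 22.8% were called (11.6% lower and 11.2% higher in KD), at an adjusted p under 0.05 in limma after Benjamini-Hochberg correction over all entries. Of the 11512 genes tested at 72 h, 23.4% were called (13.0% lower and 10.4% higher). With RPKM as deposited 728 of these 11512 genes were called lower and 2730 higher. All 4 main entries passed the filter on low values at both times. Fold changes are given on the scale of log2(scaled RPKM + 0.1), which understates the change of low transcripts. In bulk RNA, fewer cells of a type and less RNA per cell cannot be told apart.

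**Figure D1:**
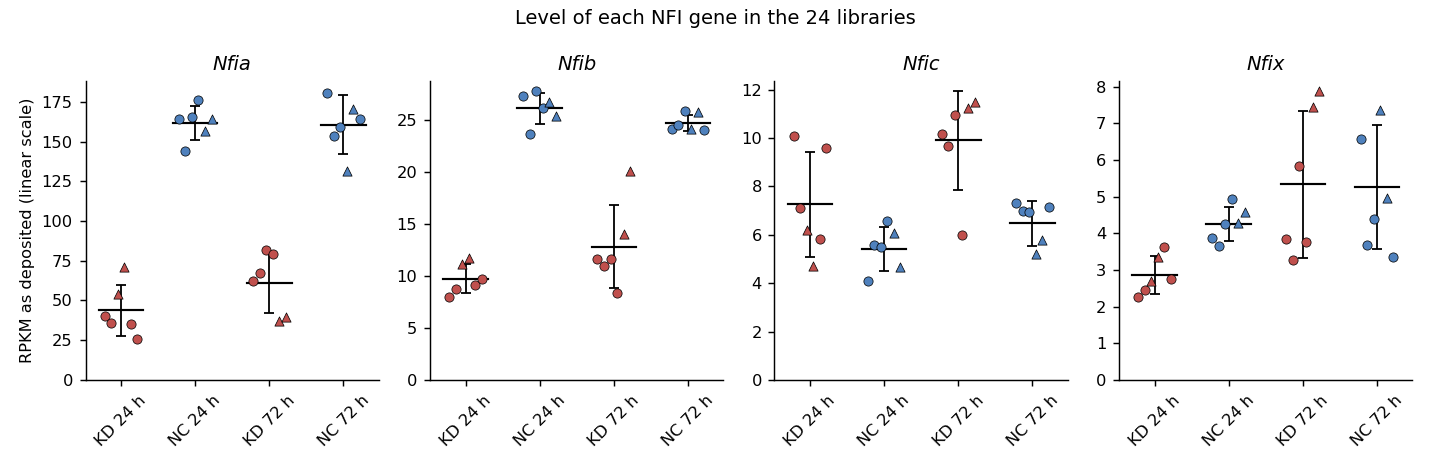
RPKM of the main entry of Nfia, Nfib, Nfic and Nfix in each library (vertical axis, linear, a panel for each gene), by group. Red marks KD and blue NC, circles the larger and triangles the smaller set of libraries, and lines with bars the mean and SD of each group (n = 6, or n = 5 in NC 72 h, where the agreeing pair is drawn as 2 points and counted once). Every KD library lies below every NC library for Nfia and Nfib at both times and for Nfix at 24 h, while the Nfic groups overlap. The share of all genes whose groups lie apart in this way is not given here.

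Nfia, the member best known from brown fat, was the most abundant of the family. It lies on chr4:97772734-98118874 (GRCm38, GENCODE M21), plus strand, over 346.1 kb, and its main entry NM_001122952 (9274 bases) held a mean of 3941.3 reads per library. KD 24 h libraries measured 25.8 RPKM at the lowest, 38.0 at the median and 70.9 at the highest, against 144.2, 164.3 and 176.2 RPKM in NC 24 h. All 6 KD libraries lay below the lowest control. How common such separation was over all genes is not given here, for this or the other members. On the log2 scale Nfia fell by 2.02 ± 0.216 (SE, 95% interval -2.48 to -1.56, adjusted p = 6.36e-05, limma).

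At 72 h KD libraries measured 37.4 RPKM at the lowest, 64.8 at the median and 81.6 at the highest, and the 5 NC samples measured 180.4, 156.4, 131.2, 170.6 and 164.3 RPKM. The groups again did not overlap. Nfia fell by 1.70 ± 0.232 (SE, 95% interval -2.2 to -1.2, adjusted p = 0.000209, limma). Within KD the sets of libraries parted. At 24 h the larger set measured 25.8 to 40.0 RPKM (n = 4) and the smaller 54.1 to 70.9 RPKM (n = 2), whereas at 72 h the larger measured 62.0 to 81.6 RPKM and the smaller 37.4 to 39.3 RPKM. Within the larger set the log2 fold change was -2.37 at 24 h and -1.42 at 72 h, and within the smaller set -1.36 and -2.29. The sets were drawn from the same expression values, so this contrast between them is a description and not a test.

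Of 18 Nfia entries, 14 entered the fits and 14 were lower at both times, over a log2 range of -2.72 to -1.87 at 24 h and of -2.06 to -1.59 at 72 h. The other 4 held a mean of 0.2 to 5.5 reads. Background shares for entries were 11.6% lower and 11.1% higher at 24 h, and 12.1% lower and 10.4% higher at 72 h. With RPKM as deposited 5403 of 52005 entries were called lower and 6337 higher at 24 h. At 72 h 3104 of 54138 entries were called lower and 13151 higher on that scale. Entries of 1 gene share reads and are not independent of each other. The short entry AK004196 (428 bases) alone took 47.5% ± 1.44 of the reads of the main entry in NC 24 h (SD, n = 6) and 52.8% ± 5.59 in KD 24 h (SD, n = 6). With sequencing from the 3′ end, entries that share that end hold the same reads. The antisense gene E130114P18Rik overlaps the 5′ end of Nfia but held a mean of 0.5 reads.

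Nfib lies on the same chromosome, chr4:82290173-82705750, minus strand, and spans 415.6 kb. Its main entry NM_008687 (8432 bases) held a mean of 614.0 reads. KD 24 h measured 7.98 RPKM at the lowest, 9.44 at the median and 11.8 at the highest, and NC 24 h measured 23.6, 26.4 and 27.7 RPKM. The groups did not overlap, and the spread within each was narrow. Nfib fell by 1.48 ± 0.143 on the log2 scale (SE, 95% interval -1.78 to -1.18, adjusted p = 5.17e-05, limma).

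At 72 h Nfib measured 8.38 RPKM at the lowest, 11.6 at the median and 20.1 at the highest in KD, and 24.1, 25.2, 24.1, 25.8 and 24.0 RPKM in the NC samples. Even the highest KD library stayed under every control. Nfib fell by 1.24 ± 0.152 (SE, 95% interval -1.57 to -0.92, adjusted p = 8.97e-05, limma). The 2 highest KD values at 72 h, 14.0 and 20.1 RPKM, were those of the smaller set. Within the larger and the smaller set the 24 h values of Nfib were -1.67 and -1.16, and the 72 h values -1.41 and -0.90, so its fall held in both sets.

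Nfib had the least uniform entries of the family. Of 24 entries 22 were tested, of which 17 fell at 24 h and 16 at 72 h, and 0 rose. With RPKM as deposited 17 fell at 24 h and 11 at 72 h. Log2 fold changes ran from -1.51 to 0.78 at 24 h and from -1.41 to 0.16 at 72 h. The GenBank entry AK030686 (2444 bases) followed the main entry at 14.3 ± 2.53 RPKM in KD 24 h and 38.6 ± 2.67 RPKM in NC 24 h (SD, n = 6 each). By contrast AK034813 (2400 bases) measured 4.38 RPKM at the lowest, 6.57 at the median and 18 at the highest in KD 24 h, and 2.92, 4.44 and 5.85 RPKM in NC 24 h. Those groups overlapped, and AK034813 was not called (log2 fold change 0.74 ± 0.29, SE, adjusted p = 0.074, limma). The entries AK078410, AK047576 and AK034793 had log2 fold changes of 0.67, 0.78 and 0.75 at 24 h and were not called either. AK034813 held a mean of 68.2 reads in KD 24 h and 44.5 in NC 24 h.

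Nfix spans 100.5 kb at chr8:84699876-84800344, minus strand. Its main entry NM_010906 (2618 bases) held only 10 to 83 reads per library, a mean of 45.1. KD 24 h measured 2.27 RPKM at the lowest, 2.72 at the median and 3.62 at the highest, against 3.66, 4.27 and 4.93 RPKM in NC 24 h. The highest KD library lay just under the lowest control. Nfix fell by 0.63 ± 0.188 (SE, 95% interval -1.03 to -0.23, adjusted p = 0.0273, limma). This call was lost without replicate 1, 2, 3 or 6 of both groups, at -0.58, -0.64, -0.64 and -0.57 on the log2 scale and adjusted p from 0.0585 to 0.0777.

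The Nfix entry with the most reads, ENSMUST00000109764 (5476 bases, chr8:84704712-84773396, a mean of 260.8 reads), was added after the values were seen. It measured 5.25 RPKM at the lowest, 7.36 at the median and 8.67 at the highest in KD 24 h, and 11.1, 13.6 and 15.4 RPKM in NC 24 h. These ranges lay well apart, and the entry fell by 0.93 ± 0.17 (SE, adjusted p = 0.0021, limma). Without replicate 6 its log2 fold change was -0.85 (adjusted p = 0.0018).

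At 72 h the main entry of Nfix measured 3.27 RPKM at the lowest, 4.84 at the median and 7.87 at the highest in KD, and 6.57, 4.04, 7.35, 4.97 and 3.35 RPKM in NC. The groups overlapped widely, and the log2 fold change was -0.25 ± 0.259 (SE, 95% interval -0.81 to 0.31, adjusted p = 0.526, limma). In KD the smaller set measured 7.43 to 7.87 RPKM and the larger 3.27 to 5.83 RPKM. The deeper entry ENSMUST00000109764 measured 11.8, 12.6 and 14.1 RPKM (lowest, median and highest) in KD and 15.8, 15.3, 16.1, 15.6 and 11.9 RPKM in NC. It was called lower at 72 h after scaling (-0.47 ± 0.12, adjusted p = 0.012, limma), and not with RPKM as deposited (-0.22 ± 0.12, adjusted p = 0.2). Of 12 Nfix entries 11 were tested, of which 9 fell at 24 h and 3 at 72 h, and with RPKM as deposited 9 fell at 24 h and 0 at 72 h. Lyl1 and G430095P16Rik lie inside Nfix on the other strand. G430095P16Rik held a mean of 6.6 reads and measured 4.69 RPKM in KD 24 h and 1.33 RPKM in NC 24 h, and how the authors handled strand is not given in the sources used here.

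Nfic was the one member without a fall. It is the shortest gene, 59.5 kb at chr10:81396186-81455635, minus strand, and its main entry NM_026756 (6218 bases) held a mean of 174.2 reads. KD 24 h measured 4.69 RPKM at the lowest, 6.66 at the median and 10.1 at the highest, against 4.1, 5.54 and 6.58 RPKM in NC 24 h. In KD 3 of 6 libraries lay above the highest control, and the groups overlapped. The log2 fold change was 0.33 ± 0.189 (SE, 95% interval -0.08 to 0.73, adjusted p = 0.224, limma).

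At 72 h Nfic measured 5.98 RPKM at the lowest, 10.6 at the median and 11.5 at the highest in KD, and 7.3, 6.96, 5.2, 5.8 and 7.14 RPKM in NC. All KD libraries but replicate 4 lay above the highest control. After scaling the log2 fold change was 0.34 ± 0.173 (SE, 95% interval -0.03 to 0.71, adjusted p = 0.178, limma), and with RPKM as deposited it was 0.59 and called (adjusted p = 0.0289). The scaling mattered at this time because the median log2 fold change of all genes on the deposited scale was 0.237, with 78.9% of the called genes higher against 44.4% after scaling. Relative to that shift Nfic was not called. Within the larger and the smaller set its 24 h values were 0.45 and 0.04 and its 72 h values 0.12 and 0.71. All 12 Nfic entries were tested and 0 were called at either time, over a log2 range of -0.33 to 0.59 at 24 h and of 0.22 to 0.54 at 72 h. With RPKM as deposited 8 of the 12 were called higher at 72 h. On that scale 13151 of all 54138 entries tested were called higher.

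**Figure D2:**
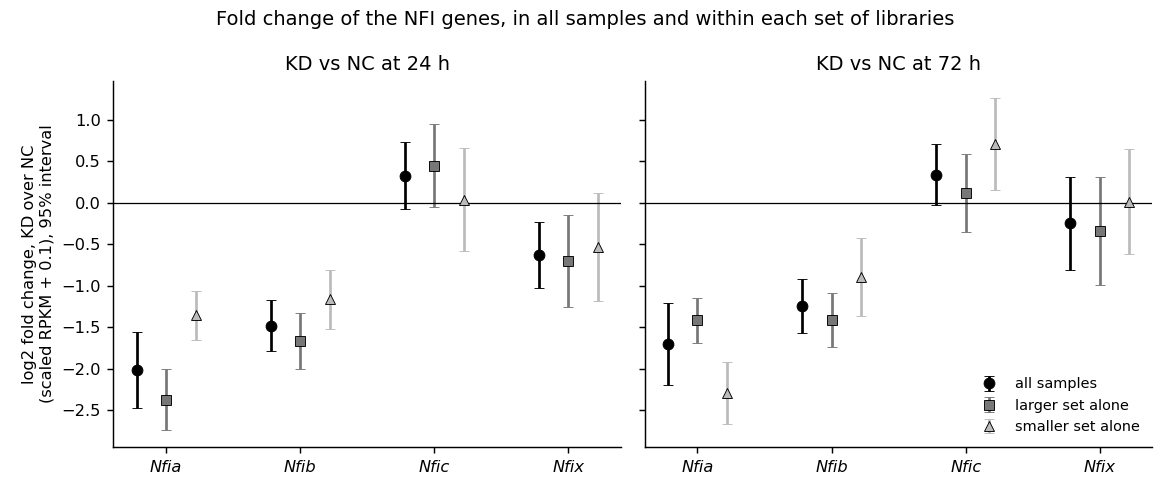
Log2 fold change of KD over NC for each member (horizontal axis) with its 95% interval, at 24 h and at 72 h, over all samples and within the larger and the smaller set of libraries. Nfia and Nfib stay below 0 with their whole interval in each, while the intervals of Nfic over all samples cross 0 at both times.

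**Figure D3:**
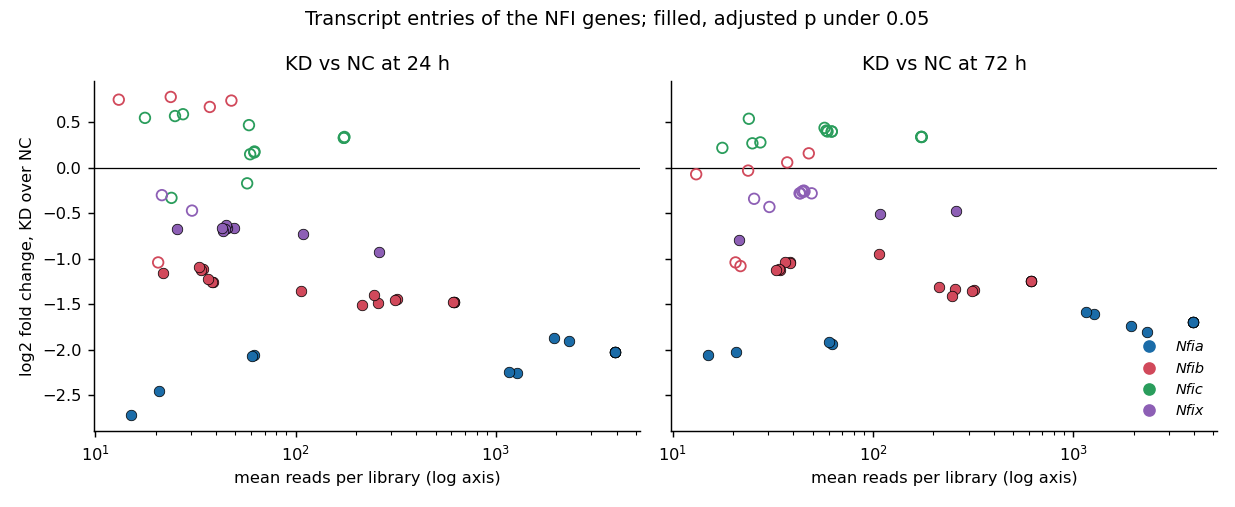
Log2 fold change of every tested entry of the 4 genes (vertical axis) against its mean reads per library (horizontal axis, log scale), at 24 h and 72 h. Filled points had an adjusted p under 0.05. Entries of Nfia lie together between -2.72 and -1.87 at 24 h, whereas those of Nfib spread from -1.51 to 0.78.

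The order of the levels per length was the same in every group, Nfia over Nfib over Nfic over Nfix. Nfia and Nfib did not overlap in any group. In the controls Nfib, at 26.1 ± 1.5 RPKM at 24 h (SD, n = 6), stood above Nfic at 5.41 ± 0.913 RPKM, and Nfic overlapped Nfix at 4.26 ± 0.461 RPKM. In KD 24 h the ranges of Nfib (7.98 to 11.8 RPKM) and Nfic (4.69 to 10.1 RPKM) met, and in KD 72 h those of Nfib, Nfic and Nfix met in turn. The place of Nfix depends on the entry, since ENSMUST00000109764 measured 13.3 ± 1.74 RPKM in NC 24 h, above Nfic. RPKM divides 3′ end reads by the whole length of an entry, which lowers the level of long transcripts.

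The make-up of the family changed with its total. Summed over the main entries, the family measured 197.7 ± 12.1 RPKM in NC 24 h and 63.6 ± 16 RPKM in KD 24 h (SD, n = 6 each), and 197.0 ± 18.9 RPKM in NC 72 h (SD, n = 5) and 89.2 ± 14.0 RPKM in KD 72 h (SD, n = 6). Nfia supplied 81.9% ± 0.683 of the sum in NC 24 h and 67.2% ± 8.18 in KD 24 h. Nfic supplied 2.74% ± 0.464 in NC 24 h and 12.4% ± 5.45 in KD 24 h, and 3.29% ± 0.345 in NC 72 h and 11.5% ± 3.52 in KD 72 h. The share of Nfib was 13.2% ± 0.62 in NC 24 h and 15.8% ± 2.72 in KD 24 h. That of Nfix, by its main entry, was 2.15% ± 0.146 in NC 24 h and 4.67% ± 1.27 in KD 24 h. At 72 h it was 2.71% ± 1.05 in NC and 6.29% ± 3.17 in KD. These shares depend on the Nfix entry chosen, and Nfic itself was not called on the scaled values at either time.

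Whether the members changed unequally was tested on ratios within each library, which do not depend on the scaling. The 12 ratios were compared by two-sided exact permutation tests with Benjamini-Hochberg adjustment over the 12. At 24 h all 6 ratios differed. The log2 ratio of Nfia to Nfic was 4.89 ± 0.26 in NC (SD, n = 6) and 2.55 ± 0.87 in KD (exact permutation p = 0.0022, adjusted p = 0.0065), the widest change. Nfia fell further than Nfib, by a difference of -0.54 in the log2 ratio (exact permutation p = 0.0065, adjusted p = 0.0097). Nfic gained on Nfix by 0.95 (exact permutation p = 0.0065, adjusted p = 0.0097).

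At 72 h 4 of the 6 ratios differed. Nfia to Nfic changed by -2.03 and Nfib to Nfic by -1.58 (exact permutation p = 0.0043 and adjusted p = 0.0087 for both). Nfia to Nfix changed by -1.45 (exact permutation p = 0.013, adjusted p = 0.016) and Nfib to Nfix by -0.99 (exact permutation p = 0.0087, adjusted p = 0.012). The ratio of Nfia to Nfix was no longer called without replicate 1, 5 or 6, at differences of -1.59, -1.18 and -1.05. The ratio of Nfia to Nfib changed by -0.46 and was not called (exact permutation p = 0.35, adjusted p = 0.35), nor was that of Nfic to Nfix, at 0.59 (exact permutation p = 0.095, adjusted p = 0.1).

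Time without knockdown was read from NC 72 h against NC 24 h, where 9.23% of 11237 genes were called and 0 of the 4 members (also 0 at an unadjusted p under 0.05). Log2 differences were 0.009 for Nfia, -0.06 for Nfib, 0.29 for Nfic and 0.27 for Nfix, with adjusted p from 0.332 to 0.969 (limma). Nfia measured 161.9 ± 10.6 RPKM (SD, n = 6) in NC 24 h and 160.6 ± 18.6 RPKM (SD, n = 5) in NC 72 h. The interaction of knockdown and time was called for 0.252% of 12680 genes and for 0 of the members (0 at an unadjusted p under 0.05), with log2 differences of 0.33 for Nfia, 0.25 for Nfib, 0.02 for Nfic and 0.39 for Nfix. On the deposited scale 97.3% of the called interactions were higher, against 65.6% after scaling, at a median over all genes of 0.172. For Nfia the interaction was 0.94 within the larger set and -0.94 within the smaller set. The sets were drawn from the same expression values, so these are descriptions and no p is given for them. Whether the sets differed in it was not tested.

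The members differ widely in genomic span, and so did the fold changes of all genes by span. Among tested genes with an annotated span, the median of log2 fold changes at 24 h was 0.07 below 50 kb. Genes of 50 to 100 kb had -0.07, of 100 to 200 kb -0.31, of 200 to 400 kb -0.81, and genes of at least 400 kb had -1.22. Of the longest class, which holds Nfib, 66.7% were called lower and 0% higher at 24 h, at 81 genes. At 72 h 52.9% of that class were called lower. In the class of Nfia 52.6% and 38.5% were called lower at the respective times, and in that of Nfix 26.6% and 19.9%. At 72 h the medians were 0.06, -0.05, -0.2, -0.57 and -0.85. Nfia, at -2.02 and -1.70, lay below the median of its class at both times. Nfib lay at -1.48 and -1.24, Nfix at -0.63 and -0.25 and Nfic at 0.33 and 0.34 against the medians of their classes. The part of gene span in the changes of the members was not tested.

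**Figure D4:**
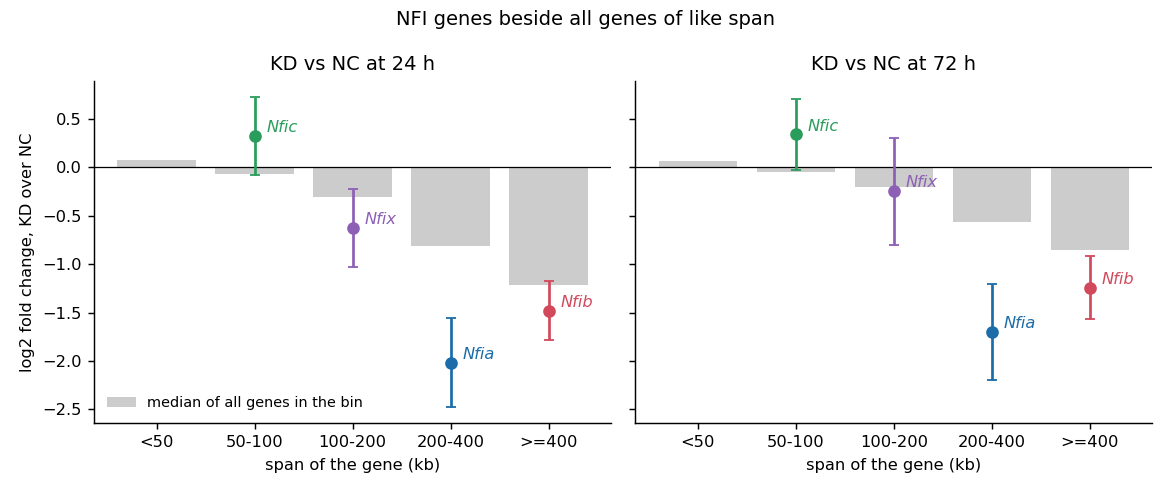
Median log2 fold change of all tested genes by genomic span (bars, with the class in kb on the horizontal axis) and the log2 fold change of the 4 members with 95% intervals (points), at 24 h and 72 h. The bars go down from 0.07 below 50 kb to -1.22 at 400 kb and above at 24 h, and Nfia lies lower than the bar of its class.

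Regulators that NFI factors act with in fat cells were taken as a list of 12 genes. All 12 were tested. At 24 h 6 fell and 0 rose, with a list median of -0.5 (log2) against -0.006 over all genes tested. Of all genes tested 11.6% were called lower and 11.2% higher. With RPKM as deposited 5 fell and 0 rose, where 1145 of 11111 genes were called lower and 1356 higher. Ebf2 was not called on that scale (-0.65, adjusted p = 0.064, limma). The study had already reported Prdm16, Ebf1 and Pparg as reduced at 24 h. Ebf1, an early B cell factor that opens adipocyte enhancers, fell by 1.85 ± 0.22 (SE, adjusted p = 0.00013, limma), from 19.9 to 31.1 RPKM in NC to 4.36 to 11.2 RPKM in KD. Prdm16, the zinc finger coregulator of brown fat identity, fell by 1.68 ± 0.31 (adjusted p = 0.0023, limma) at a mean of 26.7 reads. Rxra, the dimer partner of PPARγ, fell by 1.08 and the brown fat factor Ebf2 by 0.70, on the log2 scale. The adipogenic factor Cebpa fell by 0.57 and Pparg itself by 0.44. Ebf2 and Pparg were near the threshold (adjusted p = 0.039 and 0.046, limma).

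At 72 h, where 13.0% of all genes tested were called lower and 10.4% higher, 7 of the 12 regulators fell and 0 rose. Their median was -0.52 against -0.007 over all genes. With RPKM as deposited 5 fell and 2 rose, the histone acetyltransferase genes Ep300 (0.84) and Crebbp (0.70), which were not called after scaling. On that scale 728 of all 11512 genes tested were called lower and 2730 higher. After scaling Rxra fell by 1.35, the coactivator gene Ppargc1a by 1.27, Ebf1 by 1.12, Ebf2 by 1.08, Prdm16 by 1.36, Cebpa by 0.57 and Cebpb by 0.43. With RPKM as deposited Cebpa (-0.32) and Cebpb (-0.18) were not called. The study had already reported Cebpb and Ppargc1a as reduced after 72 h, and Ebf2 as lowered later than Prdm16. Pparg was not called at 72 h (-0.18 ± 0.09, SE, adjusted p = 0.19, limma), where the unscaled value was 0.07. The Mediator subunit gene Med1 and Cebpd were called at neither time, with values of -0.24 and -0.39 at 24 h. Of 10 regulators with a promoter window, 2 held the extended arm, Pparg and Rxra, each in a single window.

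Genes of the adipocyte and brown fat programme that NFIA takes part in made a list of 15, of which 14 were tested and Dio2 had too few reads. At 24 h, where 11.6% of all genes were called lower, 8 fell and 0 rose. With RPKM as deposited 5 fell, where 1145 of 11111 genes were called lower. After scaling the list median was -0.55 against -0.006 over all genes. At 72 h, where 13.0% of all genes were called lower, 10 fell and 0 rose. With RPKM as deposited 8 fell, where 728 of 11512 genes were called lower. After scaling the list median was -0.82 against -0.007 over all genes. The study had already reported lower Ucp1 and other thermogenic markers at 72 h. Ucp1 measured 42.1 to 78.9 RPKM in KD 24 h and 72.4 to 191.8 RPKM in NC 24 h, and 111.5 to 289.4 RPKM in KD 72 h and 544.0 to 828.6 RPKM in NC 72 h. The groups overlapped at 24 h and lay apart at 72 h. Ucp1 fell by 1.15 ± 0.24 at 24 h (adjusted p = 0.0049) and at 72 h it fell by 2.37 ± 0.21 (SE, adjusted p = 8.2e-06, limma).

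Slc2a4, the insulin-responsive glucose transporter, fell by 1.59 and 1.77 at the respective times. Among brown fat genes, the fatty acid elongase Elovl3 fell by 1.05 and 0.68, Cidea by 0.64 and 1.70, and the cytochrome oxidase subunit Cox7a1 by 0.57 and 1.47. Cidea and Cox7a1 were near the threshold at 24 h (adjusted p = 0.039 and 0.042, limma). With RPKM as deposited neither was called at 24 h (adjusted p = 0.074 and 0.088, limma). Cox8b, a further oxidase subunit, was not called at 24 h (-0.54) and fell by 1.87 at 72 h. Of the genes common to all adipocytes, Adipoq fell by 0.55 and 0.96, and Fabp4 by 0.58 and Lpl by 0.48 at 72 h only. With RPKM as deposited Fabp4 (-0.33) and Lpl (-0.23) were not called at 72 h. The lipase gene Lipe fell by 0.41 at 24 h and had the same value, not called, at 72 h. With RPKM as deposited Lipe was not called at 24 h either (-0.36). Plin1 and Cd36 were called at neither time. Of 10 of these genes with a promoter window, 3 held the extended arm, Ucp1, Cox8b and Pparg.

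Muscle genes, which NFIA is known to restrain, were mostly at or near 0. Of 11 genes only 2 had reads enough for a test. Myod1, Myf6 and Pax7 were listed at 0 in all libraries. Mef2c was not called, and Acta1, the skeletal muscle actin, fell at 72 h (-1.75 ± 0.53, SE, adjusted p = 0.028, limma). Acta1 was not called without replicate 6 (-1.81). Summed over the 11 genes, levels were 5.91 to 17.8 RPKM in KD 24 h and 7.23 to 34 RPKM in NC 24 h.

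**Figure D5:**
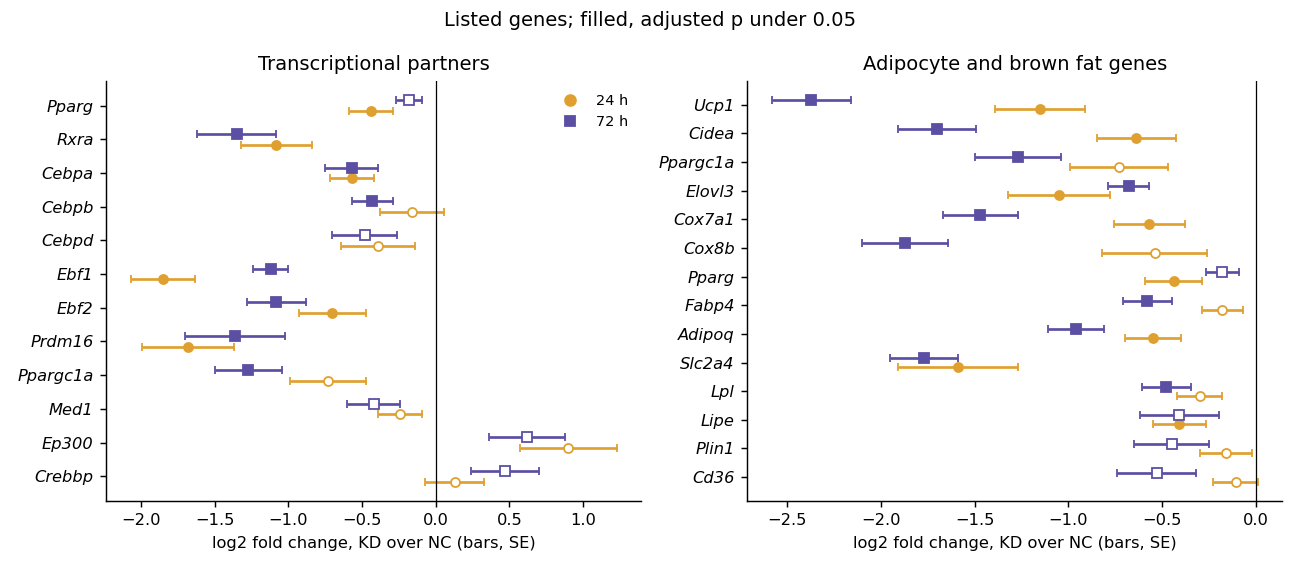
Log2 fold change with its SE (horizontal axis) of the regulators NFI factors act with and of the adipocyte and brown fat genes, at 24 h (circles) and 72 h (squares), filled where the adjusted p was under 0.05. Ebf1 and Prdm16 are lowest among the regulators at 24 h, and Ucp1 is lowest among the fat genes at 72 h.

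Markers of cell types moved beside the members. Over all genes tested 11.6% were called lower and 11.2% higher at 24 h, and 13.0% and 10.4% at 72 h. Brite markers, with Ucp1, Cidea, Cox7a1, Ppargc1a and Elovl3 tested of 6, summed to 424.9 to 847.3 RPKM in KD 72 h and 1212.2 to 1978.2 RPKM in NC 72 h, and 5 of 5 were lower. Of 7 tested adipocyte markers 3 were lower at 24 h and 4 at 72 h. With RPKM as deposited 3 were lower at 24 h, and at 72 h 1 was lower and 1 higher, the lipid droplet gene Cidec (0.36). On that scale 1145 of 11111 genes were called lower at 24 h. At 72 h 728 of 11512 were called lower and 2730 higher. Of stromal and preadipocyte markers 0 of 7 were called at 24 h, and 2 of 6 rose at 72 h, Pdgfrb (0.59) and Cd34 (2.02). Their sums overlapped, at 1155.2 to 1483.4 RPKM in KD 72 h and 572.5 to 1661.4 RPKM in NC 72 h. Macrophage markers summed to at most 28.0 RPKM, and of the 2 tested Csf1r rose at both times (1.22 and 1.23) and Lyz2 fell at 72 h (-3.68). Of the mural markers 0 of 3 tested were called at either time. The part of cell composition in the changes of the NFI genes was not tested.

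Over the 23 samples, main entries of Nfia and Nfib varied together (Pearson r = 0.88), whereas Nfic ran against Nfia (r = -0.53) and Nfib (r = -0.47). Nfix correlated with Nfib at 0.59, with Nfia at 0.44 and with Nfic at -0.1. These values describe log2 scaled RPKM across samples that share their groups, so they follow the differences between groups. Of 12679 other genes, those most like Nfia were Mcu (0.975), Atxn1 (0.969) and Lgr4 (0.969), with log2 fold changes at 24 h of -2.44, -2.48 and -1.77. Those most like Nfib were Mprip (0.96), Commd10 (0.959) and Adk (0.954). Among those most like Nfic, at lower values, were Ppap2c (0.821) and Creb3l1 (0.815), and those most like Nfix were Uckl1 at 0.888, AK085074 at 0.837 and Trdmt1 at 0.832. As for reads shared between members, 0 stretches of 50 bases were common to the annotated transcripts of any 2 of them.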

How the data were processed

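Transcript abundance was measured in 24 bulk libraries by 3′ end sequencing with barcoded oligo-dT primers, and groups were read from the sample titles. The authors aligned tags to RefSeq with the Genomatix suite, and the deposited values are RPKM per transcript entry. The genome build, the strand setting and the versions are not given in the sources used here.

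Whole reads were recovered from the steps of the RPKM values. Of the low values 75.06% to 94.77% per library were whole within 0.05 reads. Of 21075 Ensembl entries 90.8% had the length of GENCODE M21. These reads give the depth and the filter. An entry was tested if no fewer samples than the smaller group holds reached 10 reads at median depth, and 15 reads in total. 46 very abundant entries without a recovered length were given 1000 bases. Depth limits statements on counting error only, as the table has no molecular identifiers.

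For each comparison, libraries were scaled by trimmed log ratios (30% of ratios and 5% of levels trimmed). Log2(RPKM + 0.1) was fitted with limma 3.58.1 (R 4.3.3, data.table version 1.17.8) with an intensity trend, without a replicate block, and adjusted by Benjamini-Hochberg over all entries. The steps were tested on simulated data. Ratios, sequences and figures used Python 3.11.15 with scipy 1.17.1, numpy 2.4.6, pandas 2.3.3 and matplotlib 3.10.9. Columns left unused numbered 0.

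Libraries were compared in 276 pairs before averaging. Deviations of same-numbered libraries correlated at -0.08, 0.03 and 0.03 in the 3 comparisons, so the numbers do not pair the samples. Sets of libraries come from average linkage of deviations from group means over 8880 genes, with a mean correlation of 0.09 within sets and -0.12 between them. In NC 72 h replicate 6, 21.4% of the low values lay midway between whole reads, so its recovered total is uncertain.

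The members, the gene lists and the tests were chosen with earlier results of these data known. Named were the main entries, further entries by counts and extremes, called list genes with up to 4 others a list, and the 3 genes most like each member, of which 1 is not reported here. Alternatives covered pseudocounts, filter, scaling, voom on recovered reads, the block, 1 entry per gene, all groups in a single fit, both agreeing libraries kept, each replicate number left out and each set alone. The deeper Nfix entry, the list counts under other settings and the 1000-base length were added after the data were seen. No value of the authors' own tests was used.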

Additional observations from a re-analysis of the deposited data

Results flagged for a closer look

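In KD 72 h the lowest Nfic library, replicate 4, measured 5.98 RPKM and its nearest neighbour 9.68 RPKM, a gap of 0.67 of the group's range by Dixon's criterion. It was the single library so marked among the 16 combinations of 4 genes and 4 groups examined, and chance marks about 1 in 20. Without replicate 4 of both groups the log2 fold change of Nfic at 72 h was 0.36 (adjusted p = 0.103, limma).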

How the results depend on the processing

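The falls of Nfia and Nfib at both times kept their direction and their call under all 18 alternatives run for each, at log2 fold changes of -2.37 to -1.35 and -2.29 to -1.42 for Nfia and -1.67 to -1.16 and -1.41 to -0.90 for Nfib. The call of Nfix at 24 h was lost with no filter on low values (-0.64), in the larger set (-0.70) and in the smaller set (-0.53). With replicate numbers left out in turn it ran from -0.69 to -0.57, and the call was lost without 1, 2, 3 or 6 and kept without 4 or 5. At 72 h Nfix was called by its entry with most reads (-0.47) and changed sign in the smaller set (0.01), and Nfic was called with RPKM as deposited (0.59). The Nfia to Nfix ratio at 72 h ran from -1.82 to -1.05 with a number left out, and Nfic to Nfix was called with the deeper Nfix entry (0.81). Values near 0 changed sign. For Nfia in NC over time these were -0.001 with no filter, -0.017 as deposited, -0.009 with 1 entry per gene, -0.12 in the smaller set and -0.028 to 0.11 with a number left out. The Nfia interaction was 0.94 (larger set) and -0.94 (smaller set), and that of Nfic was -0.34 in the larger set and -0.13 to 0.22 with a number left out. The cause of these changes was not tested.

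Genes called over the whole table numbered 311 at 24 h, 1311 at 72 h and 401 for time in NC in the smaller set, which holds fewer samples. With a number left out they ran from 1334 to 2486 at 24 h, from 1729 to 2331 at 72 h and from 1 to 31 for the interaction. The interaction called 65 genes at a pseudocount of 1, 185 as deposited, 50 with both agreeing libraries kept, 201 in the larger and 413 in the smaller set.

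With the replicate number as a block, although the numbers do not pair the samples, 1863 genes were called at 24 h, 1797 at 72 h, 642 for time in NC and 10 for the interaction. Nfix at 24 h was then not called (-0.63, adjusted p = 0.0579, limma), and the block changed no other call of a member. Of the regulators 3 and 5 fell under the block at 24 h and 72 h, of the fat genes 4 and 8, and of the adipocyte markers 1 and 1.

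Depth limits Nfix most, at 10 to 83 reads per library in its main entry, and the tested muscle genes.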
